A study of Mus musculus with 6 samples.

Results

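MicroRNA genes with reads in ribosome footprint libraries of mouse blood progenitors were compared between wild-type (WT) and Mov10 knockout mice. They were taken as all genes that the deposited table classes as miRNA and whose normalized reads averaged at least 1 over the 6 libraries. That left 91 of the 2206 microRNA genes in the table, which lists 56748 genes in all. The choice used the mean over both genotypes, so that the levels themselves are a description, and the comparison of the genotypes is what was tested.

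Ribosome profiling sequences the RNA pieces that stay protected when a nuclease digests a cell lysate, here pieces of 24 to 36 nt recovered from a ribosome pellet. The cells were Lin-c-Kit+ cells, lineage-negative marrow cells that carry the receptor Kit, which the labels call hematopoietic stem cells. Both genotypes had been irradiated with 4.5 Gy and were sampled 12 days later, and each genotype, WT and Mov10 knockout, has 3 libraries. The labels do not say how the Mov10 allele was made, the strain, age or sex of the mice, or whether replicates are separate animals, so that p-values may measure technical spread alone. There were no unirradiated libraries. Mov10 encodes an RNA helicase that binds Argonaute proteins.

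A microRNA begins as a hairpin within a long transcript, often inside an intron of another gene. The nuclear enzyme Drosha, with Dgcr8, cuts the hairpin out, Xpo5 carries it to the cytoplasm, and Dicer1 trims it to a short duplex. An Argonaute protein keeps 1 strand, which pairs through its seed, bases 2 to 8 from the 5′ end, with mRNAs that are then repressed. Precursors and mature microRNAs are not translated as a rule, so reads on these genes count RNA pieces of footprint size at the locus, whatever had shielded them. Reads were deposited per gene, so a read on a mature arm cannot be told from a read elsewhere in the hairpin. Changes below are therefore changes of reads at a microRNA gene and not of microRNA activity.

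The mature sequences come from RefSeq and show what the hairpins yield; seeds are in capitals. The first are from genes called higher in the knockout, chosen by their small p and not by the size of the change.

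miR-1981-5p: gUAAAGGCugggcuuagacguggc
miR-1981-3p: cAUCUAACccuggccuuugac
miR-3474: cCCUGGGAggagacguggauuc
miR-1947-5p: aGGACGAGcuagcugagugcug
miR-362-5p: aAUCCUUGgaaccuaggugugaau
miR-3066-5p: uUGGUUGCuguagauuaaguag
miR-181d-5p: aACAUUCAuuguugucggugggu
miR-574-5p: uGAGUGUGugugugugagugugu

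Another set is shown because it holds genes with the same seed that were called in opposite directions. Mir15a, Mir16-2 and Mir322 share the seed AGCAGCA, and Mir103-2 and Mir107 share GCAGCAU. Among the genes that were lower in the knockout is also Mir326, whose 3p arm has the seed of the 5p arm of Mir330.

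miR-15a-5p: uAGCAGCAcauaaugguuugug
miR-16-5p: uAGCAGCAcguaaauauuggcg
miR-322-5p: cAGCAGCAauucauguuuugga
miR-103-3p: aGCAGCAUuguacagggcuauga
miR-107-3p: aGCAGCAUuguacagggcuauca
miR-326-3p: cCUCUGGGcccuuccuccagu
miR-330-5p: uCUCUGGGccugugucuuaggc

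RefSeq (GRCm38.p6) held 80 of the 91 genes, with 140 mature sequences of 18 to 25 nt and a median of 22 nt, mostly shorter than the pieces selected for sequencing. The table gives each microRNA gene the length of its hairpin, 58 to 139 bases, and in all 75 genes with a RefSeq hairpin the lengths were equal. The hairpin of Mir1981, the gene with the most reads, is shown with both mature arms in capitals.

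pre-miR-1981: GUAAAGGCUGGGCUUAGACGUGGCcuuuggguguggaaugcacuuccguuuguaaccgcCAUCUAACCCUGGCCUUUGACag

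Depth went together with genotype, which matters for genes with few reads. WT libraries held 2260348 to 2499634 reads and knockout libraries 1118345 to 1352517, so that 1 WT read was worth 0.61 to 0.68 normalized reads and 1 knockout read 1.34 to 1.62. For a gene without reads the floor was taken as 3 reads, or 1.84 to 2.04 in WT and 4.02 to 4.85 in the knockout on the normalized scale; floors and intervals here cover counting error only. Summed cell type markers also moved with genotype: erythroid genes held 625 to 664 normalized reads per WT library against 1757 to 1859, B cell genes 181.3 to 207 against 499 to 602, and neutrophil genes 9209 to 10200 against 6524 to 7111. Progenitor markers of the gate were at 1548 to 1581 and 1463 to 1546, and no marker listed was without reads. The part of depth and of cell makeup in the results below was not tested, and fewer cells of a type cannot be told apart from less RNA per cell. Mov10 itself had 110, 106.2 and 104 normalized reads in the WT libraries and 51.0, 89.0 and 46.3 in the others, with a log2 fold change of -0.84 ± 0.27 (SE) and an adjusted p of 0.0598 (limma, Benjamini-Hochberg). It was lower in 3 of 3 knockout libraries but kept reads in each, and without knockout library 2 it was called lower at -1.12 (adjusted p = 0.00747, limma).

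The 91 genes took a larger share of the reads in the knockout. Their share was 0.0382%, 0.0327% and 0.0285% of all reads in the WT libraries and 0.213%, 0.220% and 0.311% in the knockout libraries, so that the lowest knockout library lay above every WT library. The means were 0.0331% ± 0.0049 and 0.248% ± 0.055 (SD, n = 3 each), a 7.48-fold difference, given without a test because the genes were chosen on their reads. Mir1981 alone held 58.6% to 60.1% of these reads in the knockout libraries and 12.5% to 14.7% in WT. Without it the shares were 0.0285% ± 0.0041 and 0.101% ± 0.023, a 3.55-fold difference. The 10 genes with the most knockout reads held 86.8% of the knockout reads on the 91 genes and 46.7% of the WT reads. Picking these 10 by their knockout reads raises the knockout share, so nothing is read from the difference. In WT, Mir15a and Mir181d held 45.6% of the reads on the 91 genes. Fewer microRNA genes of any level had a read in the knockout, 73, 71 and 77 against 110, 110 and 113 in WT, at little more than 50% of the depth.

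**Figure D1:**
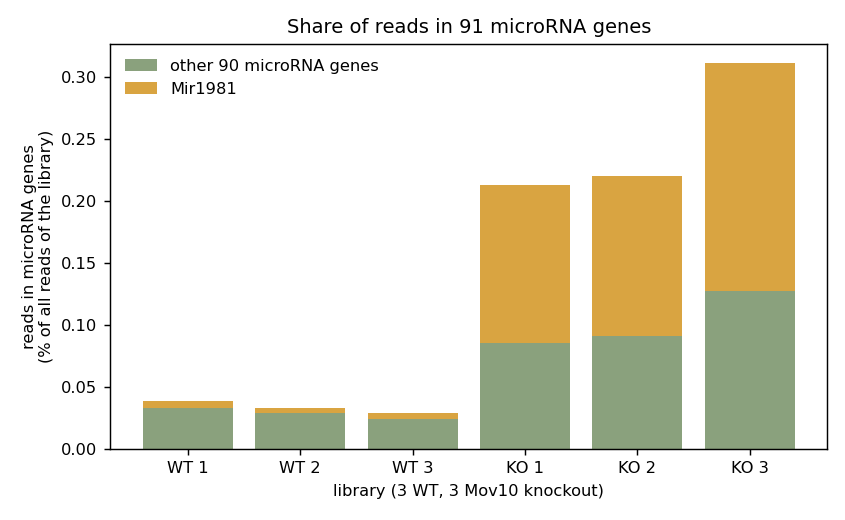
Reads in the 91 microRNA genes as a percentage of all reads of each library, stacked as Mir1981 and the other 90 genes; each bar is 1 library. WT bars reach 0.0285% to 0.0382% and knockout bars 0.213% to 0.311%, with Mir1981 making up the larger part of each knockout bar.

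Genotypes were compared with limma on log2(normalized reads + 1) over the 17114 genes with a mean of at least 1, with Benjamini-Hochberg adjustment over all of them, and a gene was called at an adjusted p under 0.05. Fold changes on this scale understate those of low genes. Of the 91 microRNA genes, 30 rose, 6 fell and 55 were not called, where 21.2% of all tested genes were called, 10.3% higher and 10.9% lower. The median log2 fold change was 1.27, or 1.14 with genes that have no read in a genotype set at their bound, against -0.17 over all tested genes. Of all calls 48.4% were higher, and with upper-quartile scaling or library totals 62.6% and 31.0%; of the microRNA calls 83.3% were higher, and 86.1% and 81.1% with those scalings. These counts are not support for a common shift, since 50 genes reached a mean of 1 in the knockout only and 10 in WT only, and a gene that passed through 1 genotype had to differ. The rule also leans toward the knockout, because 4 or 5 reads in a single knockout library were enough to pass and 9 or 10 were needed in a single WT library. Among the 31 genes with a mean of at least 1 in each genotype, 13 rose and 1 fell, where 11% and 8.68% of all tested genes under the same condition did. Of the 17 genes with a mean of at least 10 over all libraries, 16 were called, 15 higher and 1 lower, where 25.8% of all tested genes of that level were called, 14.6% higher and 11.2% lower. Of the 74 below it, 15 rose and 5 fell, where 13.8% of such genes were called, 3.33% higher and 10.5% lower. With reads in each genotype there were 63 genes, of which 22 rose and 1 fell, beside 10.4% and 8.39% of all such tested genes. Some of these 22 had a WT mean under 1 and passed through the knockout. The lean of the rule thus applies to this set, as it does to the sets split at a mean of 10. All 3 knockout libraries lay above all WT libraries in 34 of the 91 genes and below them in 9, where the groups were apart in 39.8% of all tested genes, 16.9% above and 22.9% below. Each WT library mattered to the number called: without WT 1, WT 2 or WT 3 in turn, 18, 18 and 17 of the 91 genes were called, and all tested genes fell from 3628 calls to 1592, 1385 and 1360. Without knockout library 1, 2 or 3 the calls rose instead, to 43, 44 and 38 of the 91 and to 4599, 4526 and 4580 of all tested genes. The 17 genes called without each library in turn were 13 that rose and 4 that fell. The other 19 lost their call without at least 1 WT library. How many of all tested genes kept their call in this way was not counted, so the number 17 has no background here. On recovered reads, edgeR called 31 of the 91 genes (19.5% of all tested) and DESeq2 29 (21% of all it tested), and 27 have an adjusted p under 0.05 in the authors' deposited table, against 19.3% of all tested genes.

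**Figure D2:**
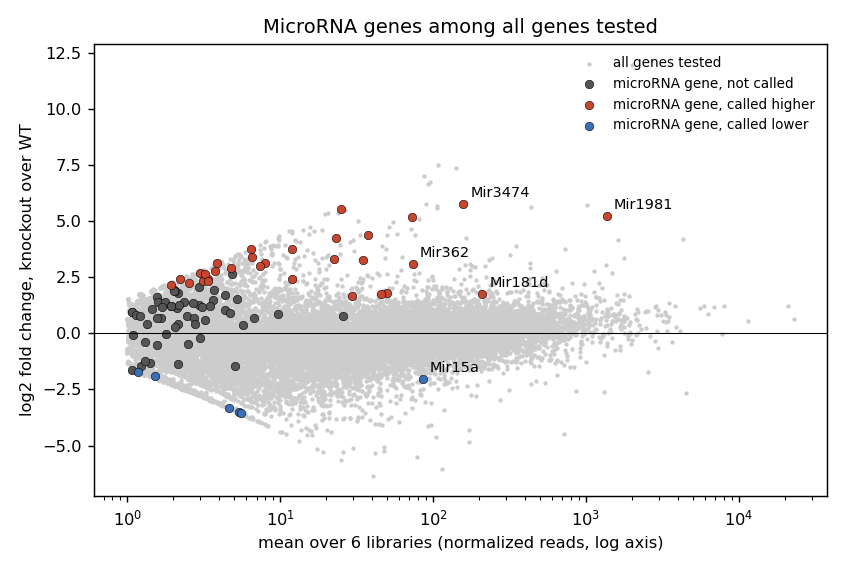
Log2 fold change (knockout over WT) against the mean over the 6 libraries in normalized reads (log axis) for all 17114 tested genes in grey and the 91 microRNA genes in dark grey, red (called higher) or blue (called lower). Most microRNA genes with a mean of at least 10 sit above 0; Mir1981 and Mir3474 lie above a log2 fold change of 5 and Mir15a near -2.

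Mir1981 had the most reads and the smallest p. It had 87.6, 62.6 and 63.4 normalized reads in the WT libraries and 2321, 2331 and 3341 in the knockout, from 93 to 135 and 1441 to 2309 reads. Every knockout library was far above every WT library. The means of 71.2 ± 14.2 and 2664 ± 586 (SD, n = 3 each) differ 37.4-fold, with a log2 fold change of 5.20 ± 0.18 (SE) and an adjusted p of 2.02e-06 (limma). The gene lies on chromosome 1, 184554604 to 184554685 on the minus strand (GRCm39), inside Mtarc2. Per kilobase of gene length, its level was 868 normalized reads in the WT libraries and 32493 in the knockout.

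Mir3474, inside the chromatin remodelling gene Actr5 on chromosome 2 (158480503 to 158480560), had 3.25, 6.14 and 4.77 normalized reads in the WT libraries and 229, 296 and 401 in the knockout. Its means of 4.72 ± 1.45 and 309 ± 86.5 differ 65.4-fold (adjusted p = 2.23e-05, limma), the highest fold among the genes with reads in each genotype. Mir1947, inside the peptidase gene Lmln on chromosome 16 (32925731 to 32925815), had 3.25, 3.68 and 2.04 normalized reads in the WT libraries against 122, 133 and 172, a 47.6-fold rise (adjusted p = 8.07e-05, limma). Both genes were thus near the WT floor and well above it in each knockout library. Mir3066, inside the ribosome biogenesis gene Nol10 on chromosome 12 (17405393 to 17405475), had no WT read against 40.2, 29.1 and 79.6 normalized reads in knockout libraries, which is at least 25.5-fold higher by the WT floor per library (adjusted p = 0.000801, limma). Mir7012, inside Dennd4b on chromosome 3, likewise had no WT read and 9.39, 14.6 and 14.5 in the knockout, at least 6.59-fold higher (adjusted p = 0.0038, limma).

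Mir362, inside the chloride transporter gene Clcn5 on chromosome X (7108221 to 7108285), had 16.9, 15.3 and 11.6 normalized reads in the WT libraries and 110, 120 and 168 in the knockout. It rose 9.07-fold, or by 3.09 ± 0.30 (SE) on the log2 scale (adjusted p = 0.000288, limma), and the groups were well apart. Mir181d belongs to the miR-181 family, known from lymphocyte development, and lies on chromosome 8 (84905345 to 84905416). It had 129, 89.6 and 71.5 normalized reads in the WT libraries and 325, 273 and 368 in the knockout, a 3.33-fold rise from 96.8 ± 29.5 to 322 ± 47.2 (adjusted p = 0.00131, limma). It was thus already among the most read microRNA genes in WT. Mir30b, of the miR-30 family (chromosome 15, 68209264 to 68209359), went from 2.38 ± 0.40 to 72.8 ± 34.7 normalized reads, 30.7-fold higher, with 113 in knockout library 3 and 52.3 and 53.4 in the others. Mir574, inside Fam114a1 on chromosome 5, had 4, 2 and 1 reads in WT and 32, 20 and 41 in the knockout, where its mean was 44.9 ± 13.6 normalized reads, 29.9-fold higher. Mir1964, inside Zfp84 on chromosome 7, had 26.0, 19.0 and 12.9 normalized reads in the WT libraries and 87.2, 32.3 and 96.9 in the knockout, a 3.74-fold rise with an adjusted p of 0.0349 (limma). Its groups came close, 26.0 against 32.3.

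The other genes that rose were lower or had few WT reads. Mir1943 went from 3.27 ± 1.30 to 42.0 ± 17.9 normalized reads and Mir1945 from 0.89 ± 0.77 to 23.2 ± 5.15, and both kept their call without each library in turn. Mir7j, which encodes let-7j, had 1, 2 and 1 reads in WT and 10, 10 and 11 in the knockout, 17.8-fold higher (adjusted p = 0.00918, limma). The WT mean of Mir7j, 0.85 normalized reads, is under the WT floor. The ratio of its pooled normalized rates had an exact 95% counting interval of 6.18 to 68.2. Mir148a, known from B cells, had 1, 1 and 0 reads in WT and 4 in each knockout library (adjusted p = 0.0273, limma). With so few reads, its ratio of pooled normalized rates was 13.5 with an exact 95% counting interval of 3.01 to 124.6. Mir125b-2, of a family known from stem cells and leukaemia, had no WT read and 8.05, 12.9 and 1.45 normalized reads in the knockout, so that knockout library 3 held 1 read; it was called higher (adjusted p = 0.0338, limma), at least 3.85-fold. No WT read was found for 21 of the 91 genes and for 2.80% of all tested genes; 8 of the 21 were called higher, where 22.9% of all such tested genes were, and nothing is read from this count since these genes passed through the knockout alone. Mir6900 and Mir7013, both among them, had knockout means of 4.41 and 3.89 normalized reads, at or under the mean knockout floor of 4.41, and no fold is given.

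**Figure D3:**
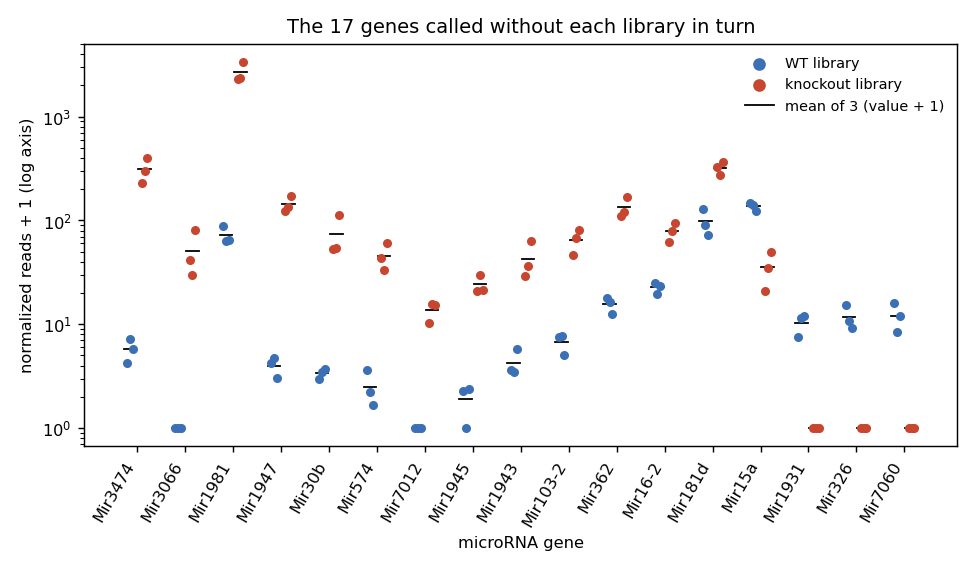
Normalized reads plus 1 (log axis) of the 17 microRNA genes that were called without each library in turn; points are libraries, blue for WT and red for knockout, and lines are means of 3. In 13 genes every red point lies above every blue point, and in Mir15a, Mir1931, Mir326 and Mir7060 below, the last 3 being without reads in the knockout.

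Of the 6 microRNA genes that fell, Mir15a alone had knockout reads. Mir15a, whose product is known to repress the survival gene Bcl2, lies inside the long noncoding RNA Dleu2 on chromosome 14 (61869476 to 61869559, minus strand). It had 147, 139 and 123 normalized reads in WT, where it was the most read microRNA gene, and 20.1, 33.97 and 49.2 in the knockout. The means of 137 ± 12.2 and 34.4 ± 14.5 differ 3.97-fold, with a log2 fold change of -2.04 ± 0.32 (SE) and an adjusted p of 0.00368 (limma). Its groups were well apart, and the lowest knockout library rested on 15 reads.

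Mir326, Mir7060 and Mir1931 were read in WT and had no read in any knockout library. Mir326, inside the arrestin gene Arrb1 on chromosome 7 (99201476 to 99201570), had 14.3, 9.82 and 8.18 normalized reads in WT, and was at least 2.44-fold lower in the knockout by the floor per library (adjusted p = 0.00501, limma). Mir7060, inside Fbrs on chromosome 7, had 14.9, 7.36 and 10.9 in WT and was at least 2.51-fold lower (adjusted p = 0.00527, limma). Mir1931, inside the kinase gene Cdk17 on chromosome 10, had 6.49, 10.4 and 10.9 and was at least 2.11-fold lower (adjusted p = 0.00608, limma). These 3 kept their call without each library in turn. Mirlet7f-2 and Mir107 were also called lower, with adjusted p of 0.0394 and 0.0456 (limma), but their WT means of 2.37 ± 0.29 and 3.06 ± 1.69 normalized reads lie under the knockout floor, so no fold is given and reads at the WT level could have been missed at the knockout depth. The calls of both were lost without 1 or more of the libraries. In all, 7 of the 91 genes had no knockout read, and 4.59% of all tested genes had none.

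Genes that share a seed were called in opposite directions in the groups of Mir15a and of Mir107. Mir16-2 shares its seed with Mir15a and rose where Mir15a fell: it had 24.0, 18.4 and 22.5 normalized reads in the WT libraries and 61.7, 77.6 and 94.1 in the knockout, a 3.60-fold rise (adjusted p = 0.00468, limma). Mir15a was thus above Mir16-2 in each WT library and below it in each knockout library. The log2 ratio of Mir16-2 over Mir15a was -2.61 ± 0.23 in WT and 1.22 ± 0.33 in the knockout (SD, n = 3 each), a difference of 3.83. The same seed is in Mir322, which was called higher, as was Mir16-2, but on 2 WT and 13 knockout reads (adjusted p = 0.0352, limma). Mir103-2, inside the pantothenate kinase gene Pank2, had 6.49, 6.75 and 4.09 normalized reads in the WT libraries and 45.6, 66.3 and 79.6 in the knockout, 11.0-fold higher (adjusted p = 0.00173, limma). Its relative Mir107, inside Pank1, had 4.54, 1.23 and 3.41 in WT and none in the knockout, and the genes share the seeds of both arms. The arms of Mir103-2 and Mir107 are nearly alike over their whole length. How reads that match both were assigned is not given in the sources used here. The call of Mir107 was lost without WT 1, WT 2 or WT 3, with upper-quartile scaling (adjusted p = 0.0506, limma), with no filter (0.0622), with edgeR (0.101) and with DESeq2 (0.324), so that only Mir103-2 kept its call without each library in turn. Of the miR-30 family, Mir30b rose, Mir30a had 0, 12.9 and 15.9 normalized reads in the knockout and none in WT without being called (adjusted p = 0.114, limma), and Mir30c-1 was at 6.96 ± 1.79 and 3.18 ± 4.31 (adjusted p = 0.279, limma). Mir26a-1 was called higher with 12.1, 1.62 and 5.79 normalized reads in the knockout, and Mir26b had 9 reads, all in knockout library 3. The seed groups were picked after their values were seen.

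**Figure D4:**
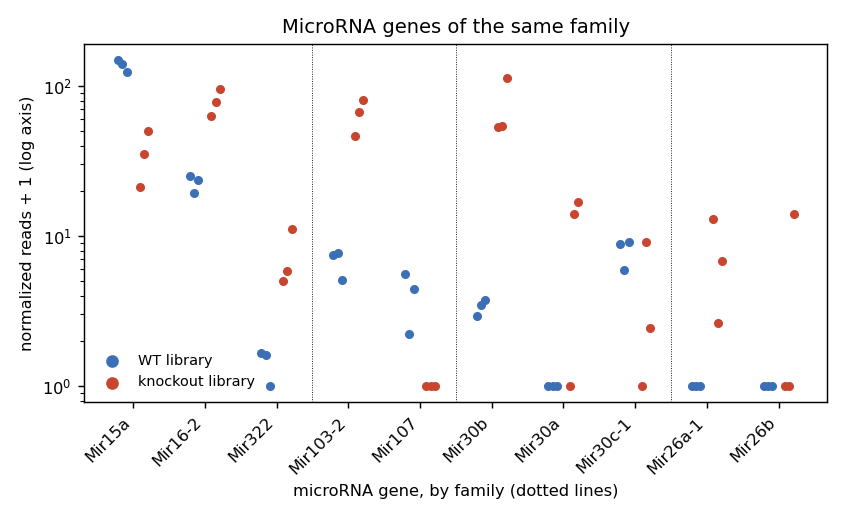
Normalized reads plus 1 (log axis) of microRNA genes of the same family, dotted lines separating the families; points are libraries, blue for WT and red for knockout. Mir15a is higher in WT and Mir16-2 in the knockout, Mir103-2 rises where Mir107 has no knockout read, and Mir26b has reads in 1 library.

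Most of the 91 genes lie inside another gene, and calls of the microRNA genes and of their hosts are set side by side here. A host was any gene of another class whose start to end holds the whole microRNA gene; 75 of the 91 have one, 72 on the same strand, 70 in a protein-coding host and 5 in long noncoding RNAs only. Whether a read on a hairpin was also counted for its host is not given in the sources used here, and exons were not mapped, so an intronic place is not claimed. For 72 genes the host was tested too. Across these genes, which are not independent replicates and share their 6 libraries, the log2 fold changes of gene and host had r = -0.01 and rho = -0.08. The microRNA gene lay above its host in 56 of 72, with a median difference of 1.27 on the log2 scale. The microRNA genes passed a rule that leans toward the knockout and the hosts did not, so part of this excess follows from the rule; among the 26 with a mean of at least 1 in each genotype, 20 lay above their host, with a median difference of 1.28. Of 24 genes with a host that rose, the host rose in 4, fell in 4, was not called in 15 and was not tested in 1, where 10.3% of all tested genes rose and 10.9% fell. Among the 4 hosts that fell, Nanos3 had a WT mean under the knockout floor. Of the 6 microRNA genes that fell, the host fell in 2, rose in 1 and was not called in 3.

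Mtarc2, the host of Mir1981, encodes a mitochondrial reducing enzyme and was among the hosts that rose. It had 138, 112 and 132 normalized reads in the WT libraries and 227, 277 and 268 in the knockout, a rise of 1.01 ± 0.15 (SE) on the log2 scale (adjusted p = 0.00283, limma). Per kilobase of the length that the table lists for each gene, Mir1981 was 45.3 times as dense as Mtarc2 in WT and 838 times in the knockout. The log2 ratio of Mir1981 over Mtarc2 was -0.84 ± 0.20 in WT and 3.35 ± 0.28 in the knockout, a difference of 4.19. For this and the other 6 ratios computed, all chosen after values were seen, the groups did not overlap, and an exact two-sided permutation test over 20 regroupings gave p = 0.1, also adjusted, the smallest that 3 against 3 libraries allow. Nothing is read from this, since the pairs were picked by their calls. Mir16-2 over Mir15a had to separate, because those genes were apart in opposite directions. Mir7012, Mir326 and Mir1931 had no read in 1 genotype, where only the added 1 stands for them. Smc4, the condensin gene that holds Mir16-2, rose from 961 ± 16.8 to 1327 ± 149 normalized reads (adjusted p = 0.0085, limma). Its log2 rise of 0.46 is below the 1.79 of Mir16-2. Dennd4b rose with Mir7012, from 186 to 504 normalized reads, and the noncoding Ftx of the X inactivation region rose with Mir421.

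Other hosts went a different way from the microRNA gene or were not called. Actr5, the host of Mir3474, had 64.9, 74.9 and 70.2 normalized reads in the WT libraries and 29.5, 37.2 and 52.1 in the knockout, a log2 fold change of -0.84 that was not called (adjusted p = 0.068, limma), beside 5.75 for Mir3474. Lmln and Clcn5, with log2 fold changes of 0.08 and 0.10, were not called either beside Mir1947 and Mir362. Nanos3, around Mir181d, had 3.58 ± 2.40 normalized reads in the WT libraries and none in the knockout and was called lower (adjusted p = 0.0431, limma), where Mir181d rose. The WT mean of Nanos3 lies under the mean knockout floor of 4.41, so reads at that level could have been missed at the knockout depth. Dleu2, around Mir15a, had 49.3, 42.3 and 40.9 in WT and 83.1, 33.97 and 86.8 in the knockout and was not called (adjusted p = 0.394, limma); Mir15a was 487 times as dense as Dleu2 in WT and 79.8 times in the knockout. Arrb1 and Cdk17 fell along with Mir326 and Mir1931, Arrb1 from 316 to 192 normalized reads. Huwe1, a ubiquitin ligase gene around Mirlet7f-2, rose from 1133 to 1978 (adjusted p = 0.000525, limma). Over all hosted genes with a value, the median density of the microRNA gene over its host was 0.68 in WT and 2.62 in the knockout, which the rule also raises, and for the 26 with a mean of at least 1 in each genotype and a tested host it was 3.09 and 17.7.

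**Figure D5:**
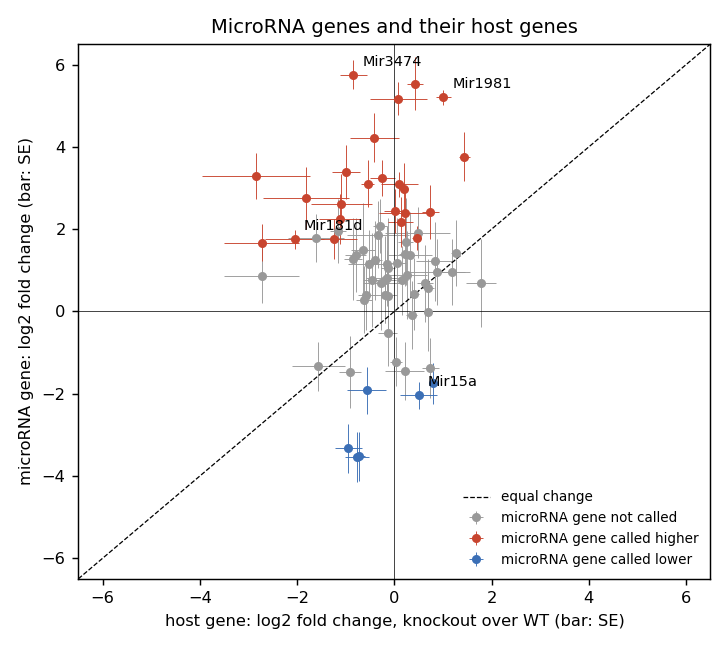
Log2 fold change of each microRNA gene (vertical) against that of its host gene (horizontal) for the 72 genes with a tested host; bars are standard errors of the fit and the dashed line marks equal change. Hosts cluster around 0 while red genes (called higher) lie above the line, and 56 of the 72 points are above it.

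MicroRNA hairpins are often cut from 1 transcript in clusters, and the reads of some close neighbours differed widely. Within 10 kb on the same strand, 21 of the 91 genes have another microRNA gene. Those neighbours include 77 genes that did not reach a mean of 1, of which 71 had no read at all and the other 6 at most 7 reads over the 6 libraries. That share without reads is close to the one over all microRNA genes, where 1981 of 2206 had none. Most of the 77 lie near Mir467c or Mir668, which had 4 and 8 reads, in 1 library each. Mir16-1 lies 55 bases from Mir15a and had no read in any library, where Mir15a had 705. Mir181c, 86 bases from Mir181d, had 1 read against 1115, and Mir15b, 67 bases from Mir16-2, had 2 against 259. Other neighbours are given side by side, with no test of their difference. Mir421 rose 7.57-fold (adjusted p = 0.0331, limma), where Mir374b, 64 bases away in the same host Ftx, was under the knockout floor in each genotype: it had 3.23 ± 0.60 normalized reads in the WT libraries and 1.08 ± 1.87 in the knockout without being called. Mir130b rose 3.55-fold (adjusted p = 0.0303, limma), by a log2 fold change of 1.67 ± 0.44 (SE), and Mir301b, 258 bases away, was not called at 0.86 ± 0.65 (adjusted p = 0.391, limma), which lies within those errors of it. The calls of Mir421 and Mir130b did not hold without each library in turn. A mature microRNA that another gene also encodes is made from 8 of the 91 genes, among them Mir16-2, Mir103-2, Mir30c-1 and Mirlet7f-2. In all 8 cases the other gene had no read in any library. How reads that match several places were counted is not given in the sources used here, so reads of such copies may be assigned to 1 of them and their level is uncertain.

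MicroRNAs known from blood were mostly without reads at this footprint size, and so were microRNA genes in general. Of the 2206 in the table, 1981 had no read in any library, a larger share than in the blood list that follows. Of 84 listed genes of such microRNAs, 12 are among the 91, 16 had at most 7 reads in all, and 56 had none, including Mir223, Mir142, Mir155, Mir21a and Mir451a, which are known from blood cells. Of the 12, Mir181d, Mir16-2, Mir30b, Mir125b-2 and Mir148a rose, Mir15a and Mirlet7f-2 fell, and 5 were not called. Of all tested genes, 10.3% rose and 10.9% fell, and nothing is read from so small a count. The calls of Mir125b-2, Mir148a and Mirlet7f-2 did not hold without each library in turn. Mir150, known from lymphocytes, had 3, 2 and 1 reads in WT and 3, 0 and 0 in the knockout. Mir23a was at 3.01 ± 0.27 and 2.01 ± 1.06 normalized reads (adjusted p = 0.629, limma). Mir29b-1 had no WT read and 0, 4 and 4 reads in the knockout (adjusted p = 0.143, limma).

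Of the 55 genes that were not called, 54 had a mean under 10. The exception was Mir744, with 19, 22 and 11 reads in WT and 27, 1 and 57 in the knockout, or 36.2, 1.62 and 82.5 normalized reads there, so that its knockout libraries lay on both sides of WT (adjusted p = 0.674, limma). Reads in 1 library only were found for 9 genes, all in knockout library 2 or 3, with 4 to 15 reads; Mir101b had the 15. In 65 of the 91 genes the 6 libraries together held fewer than 30 reads, and only 22 had a read in all 6. At the edge of the rule, Mir467c and Mir7667 passed with a mean of 1.08 from 4 reads each in knockout library 2, and Mir704 missed it at 0.98 with 3.25, 0.61 and 2.04 normalized reads in the WT libraries and none in the knockout.

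The proteins that make and use microRNAs are read from ordinary mRNAs, and a list of 30 of their genes moved both ways. Of 29 tested, 6 rose, 6 fell and 17 were not called, with a median log2 fold change of -0.23, beside the 10.3% and 10.9% of all tested genes. All 29 had a mean of at least 10, and of all tested genes at that level 14.6% rose and 11.2% fell. The split moved with the scaling, to 3 higher and 10 lower with library totals, and was 5 and 9 with edgeR. Among nuclear factors, Drosha, the enzyme that frees the hairpin, had 232, 309 and 233 normalized reads in the WT libraries and 96.6, 147 and 98.4 in the knockout, a 2.26-fold fall (adjusted p = 0.00578, limma). Its partner Dgcr8 rose by 0.55 on the log2 scale, on 492, 473 and 506 against 629, 623 and 951 (adjusted p = 0.0404, limma). Hnrnpa2b1, which binds primary transcripts, rose 2.28-fold, Ddx5 1.33-fold and Srrt 1.27-fold, and the editing enzyme gene Adar fell 2.18-fold and Hnrnpa1 1.48-fold.

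Xpo5, the exporter of hairpins, had 645, 516 and 553 normalized reads in the WT libraries and 1376, 1288 and 1437 in the knockout, a 2.39-fold rise (adjusted p = 8.27e-05, limma). Ran, the GTPase that drives the export, fell 1.90-fold. Dicer1 had 282, 315 and 286 in WT and 589, 555 and 528 in the knockout, a 1.89-fold rise (adjusted p = 0.000528, limma). In Xpo5 and Dicer1 every knockout library lay above every WT library. Of the Argonautes, Ago3 fell 3.49-fold, from 60.4, 76.1 and 64.7 to 12.1, 6.47 and 39.1 (adjusted p = 0.0347, limma). Ago1 and Ago2 were below WT in each knockout library but were not called (adjusted p = 0.0527 and 0.0583, limma). Ago4 was 1.38-fold higher and was not called either (adjusted p = 0.492, limma). The uridyl transferase gene Tut7 fell 1.29-fold. Footprints reflect both the amount and the translation of an mRNA, which were not separated here.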

How the data were processed

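Ribosome footprint libraries of 24 to 36 nt were analysed from 3 WT and 3 Mov10 knockout samples of irradiated mouse Lin-c-Kit+ cells, per the labels' protocols. The deposited signal values are gene counts divided by 1 size factor per library, as their values show: 99.976% of them are whole multiples of the library's step within 0.05 of a read. The 5 genes whose values are not multiples of their own library's step (Rps29, Camp, Igkc, Ssr4, Rpl27) were left out. The genome build is GRCm39, per the submitters' processing notes; the aligner, counting tool, annotation and use of strand were not given in the sources used here. The authors also deposited log2 fold changes and adjusted p-values, made with an unstated test; of the 91 microRNA genes, 26 are called both there and here.

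Genotypes were compared with limma 3.58.1 in R 4.3.3 (lmFit, eBayes with trend) on log2(value + 1) with a genotype term alone, over genes with a mean of at least 1, as edgeR was planned only for raw counts. Calls are at a Benjamini-Hochberg adjusted p under 0.05. Reads were recovered by dividing by the step, and edgeR 4.0.16 and DESeq2 1.42.0 were run on them as alternatives. Floors are 3 reads, and counting intervals are exact at 95%. Pairs of libraries within a genotype differed by more than sampling noise. The mean chi-square per gene was 1.57 to 2.34 in WT pairs and 6.35 to 7.24 in knockout pairs, so the knockout libraries were more spread. The members and lists were chosen with earlier results of these data known. Genes named are up to 10 higher and 10 lower by smallest p, the 10 with the highest mean, members of the blood list, their hosts, genes at the edge of the rule and pathway genes past the threshold; Mir1943, Mir1945, Mir7j, Mir6900, Mir7013, Mir744, Mir101b and the seed, cluster and copy relatives were chosen after their values were seen. Symbols of the table were matched to RefSeq (GRCm38.p6) for sequences only. Python 3.11.15 with pandas 2.3.3, scipy 1.17.1 and matplotlib 3.10.9 was used.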

Additional observations from a re-analysis of the deposited data

How the results depend on the processing

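The number of microRNA genes called, 36, was 34 with a pseudocount of 0.1, 37 with library totals, 36 with upper-quartile scaling, 27 without a filter, 29 with DESeq2 and 31 with edgeR; it was 17 to 44 with each library left out in turn, 16 of 17 with a mean of at least 10, and 21 of 26 with at least 30 reads, a choice made after seeing the data. All genes called went from 3628 to 1360 to 4599 with a library left out. Of the called genes, 30 were also called by edgeR and 28 by DESeq2, and all 36 kept their sign in every setting run. Another scaling moved the median of all genes by 0.17 (upper quartile) and -0.20 (library totals) on the log2 scale and the higher share of all calls from 48.4% to 62.6% and 31.0%, but that of the microRNA calls from 83.3% to 86.1% and 81.1%. Of the microRNA genes named by the rule, Mir150, which was not called, had log2 fold changes of -1.15 to 0.0094 with a library left out and 0.055 with edgeR, where the main value is -0.38; the cause was not tested. The share in microRNA genes differed 3.55-fold without Mir1981, chosen after seeing the data. Mov10 was past the threshold with library totals (-1.06), a mean of at least 10 (-0.84), without knockout 2 (-1.12; -0.66 to -1.12 with a library left out) and with edgeR (-0.86), with adjusted p from 0.00747 to 0.199 over all settings. Same-numbered libraries did not deviate together (r of -0.006 to 0.013), and a fit with the replicate block called 28 microRNA genes and 3245 genes in all. Depth limits genes under the knockout floor.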
